A study of Mus musculus with 4 samples.

Results

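Expression of 8 genes that encode guidance and chemoattractant signals was followed in mouse embryoid body cells with and without Snai1. The genes were Cxcl12 and its receptors Cxcr4 and Ackr3, Apln and its receptor Aplnr, and Ntn1 with its receptors Unc5b and Unc5c. All probe sets paired with these symbols were taken, which gave 13 probe sets for 7 of the 8 genes, out of 28898 probe sets for 17097 genes in all. No probe set was paired with Cxcr4 in the annotation used here, so Cxcr4 was not analysed. The genes were selected on log2 differences between these same 4 arrays that were already known, so their counts and values are a description.

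Embryonic stem cells, either Snai1 knockout (KO) or the control labelled F/F, were grown in hanging drops and then in suspension as embryoid bodies, which are aggregates of spontaneously differentiating stem cells. The cells were sorted on day 4 with an antibody to Flk1, the VEGF receptor encoded by Kdr, which marks mesoderm with blood and endothelial potential. The 4 groups were KO Flk1+, F/F Flk1+, KO Flk1- and F/F Flk1- cells, with 1 Affymetrix array each. For KO Flk1- cells the labels name day 4 in one field and day 5 in another. The labels state neither how the knockout was made nor how many lines or cultures stand behind an array. There were no replicates, so no spread between cultures could be measured, no test was run, and the number of arrays limits the precision.

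CXCL12 is a secreted chemokine that attracts migrating cells through the G protein coupled receptor CXCR4, while ACKR3 (also known as CXCR7) binds and removes CXCL12 and signals mainly through arrestins. Apelin, the peptide product of Apln, acts on the G protein coupled receptor APLNR, which early mesoderm and growing vessels use and which also binds the peptide APELA. Netrin-1, the product of Ntn1, guides axons and vessels and repels cells through receptors of the UNC5 family. Snai1, the gene lost in the knockout, encodes a zinc finger repressor of epithelial genes that acts during the transition to mesenchyme.

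The receptor genes did not move alike. Unc5c was lower in KO than in F/F cells in both fractions, by 2.14 on the log2 scale in Flk1+ and by 3.02 in Flk1- cells. Ackr3 was lower in KO cells in the Flk1+ fraction and not in the Flk1- fraction, with differences of -1.41 in Flk1+ and 0.36 in Flk1- cells. Aplnr was higher in Flk1+ than in Flk1- cells in both genotypes, and Unc5b stayed within 0.33 over the 4 arrays. Of the ligands, Ntn1 had its lowest value in F/F Flk1+ cells, and Apln stayed below the floor on every array.

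The floor, which separated values with signal from values without, was set at 3.19 on the log2 scale, the 40th percentile of the values of all genes over the 4 arrays. A gene with several probe sets was represented by the probe set with the highest mean, and a difference was counted from a size of 1 (2-fold) upwards if either array compared had a value above the floor. By this floor 10958 genes had signal on at least 1 array, among them 5 of the 7 measured members, Ackr3, Aplnr, Unc5b, Unc5c and Ntn1. As a check of the sort, Kdr was at 9.03 and 8.92 in KO and F/F Flk1+ cells, against 3.88 and 4.55 in KO and F/F Flk1- cells. Snai1 was at 1.88, 2.56, 1.94 and 2.42 in KO Flk1+, F/F Flk1+, KO Flk1- and F/F Flk1- cells, below the floor throughout, so it does not check the genotype labels. Each of these arrays holds a mixture of cells, so fewer cells of a type and less RNA per cell cannot be told apart.

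**Figure D1:**
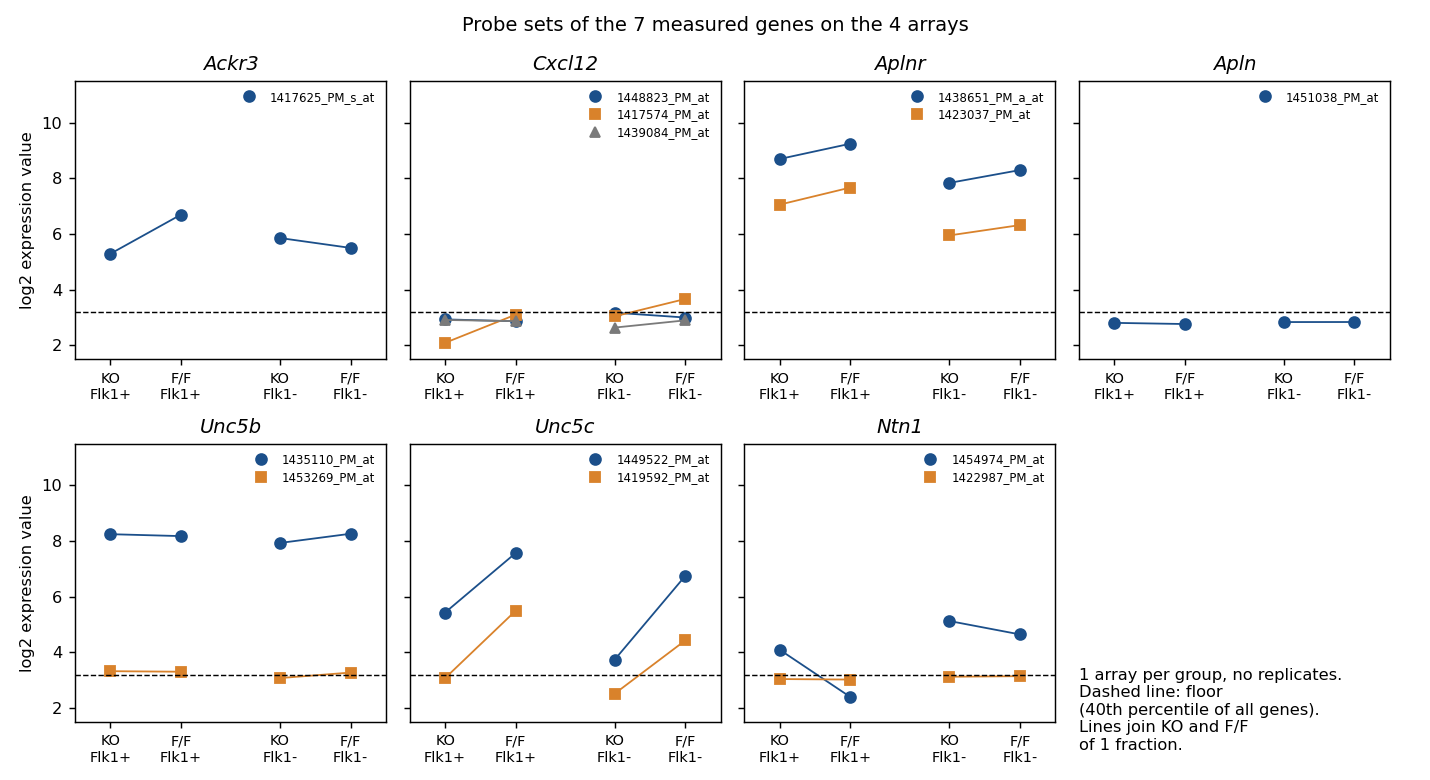
Log2 expression value (y axis) of every probe set of the 7 measured genes on the 4 arrays (x axis), with KO left of F/F within each fraction, lines joining the genotypes of 1 fraction and the dashed line at the floor of 3.19. Unc5c lies lower in KO in both fractions, Ackr3 is highest in F/F Flk1+ cells, Aplnr is higher in Flk1+ cells, and Apln lies below the floor on all 4 arrays.

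Cxcl12, the chemokine ligand, gave little signal. Its probe set with the highest mean, 1448823_PM_at, was at 2.93, 2.86, 3.17 and 2.99 in KO Flk1+, F/F Flk1+, KO Flk1- and F/F Flk1- cells, below the floor on each array. Probe set 1439084_PM_at, at 2.63 to 2.91, was below the floor on each array too. Probe set 1417574_PM_at had values of 2.08, 3.10, 3.04 and 3.66 in KO Flk1+, F/F Flk1+, KO Flk1- and F/F Flk1- cells. Only its F/F Flk1- value was above the floor, at least 1.38-fold above the KO Flk1- and the F/F Flk1+ value. No difference of Cxcl12 was counted.

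Ackr3, the scavenging receptor for CXCL12, was read by 1 probe set, 1417625_PM_s_at, whose ending marks probes that can match more than 1 transcript. Its values were 5.29 in KO Flk1+, 6.70 in F/F Flk1+, 5.85 in KO Flk1- and 5.50 in F/F Flk1- cells. The F/F Flk1+ array stood highest and the other 3 lay within 0.57 of each other. In Flk1+ cells the KO value was 2.66-fold below the F/F value, a difference of -1.41. In Flk1- cells the KO value was 1.28-fold above the F/F value, a difference of 0.36.

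The sort difference of Ackr3 therefore ran in opposite directions in the genotypes. KO cells had a Flk1+ minus Flk1- difference of -0.57, which was not counted by the 2-fold rule. F/F cells had one of 1.20, a 2.30-fold higher level in Flk1+ cells. The difference of differences, that is KO minus F/F in Flk1+ cells less the same in Flk1- cells, was -1.77. Among 10958 genes ordered from the most negative, it held place 2, which is a description, since Ackr3 was chosen with such differences known. With 1 array in each group, this difference could not be set against a spread between cultures.

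Markers of primitive streak and nascent mesoderm were read beside Ackr3. Eomes and Mixl1, transcription factor genes of the primitive streak, were both highest in F/F Flk1+ cells, as Ackr3 was. Eomes had values of 6.39, 7.21, 6.39 and 6.05, and Mixl1 of 4.55, 5.31, 4.14 and 4.06, in KO Flk1+, F/F Flk1+, KO Flk1- and F/F Flk1- cells. Of the whole list, 0 of 9 members above the floor were 2-fold apart between KO and F/F in Flk1+ cells, where 1.85% of all genes were. In F/F cells 2 of 8 were 2-fold or more higher in the Flk1+ than in the Flk1- fraction, where 2.7% of all genes were 2-fold apart. The other members did not all follow these 2 genes, since 5 of 9 were above 0 for KO minus F/F in Flk1+ cells and the median was 0.14, against -0.82 for Eomes and -0.76 for Mixl1. The summed linear level of the list was 400.0 in KO Flk1+ and 479.9 in F/F Flk1+ cells, and 386 in KO Flk1- and 319 in F/F Flk1- cells. Ackr3 was lowest in KO Flk1+ cells, while Eomes, Mixl1 and this sum were lowest in F/F Flk1- cells. A highest level in F/F Flk1+ cells was also seen for the summed endothelial, cardiac and mesenchymal marker lists described below. The part of any of these lists in the Ackr3 values was not tested.

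Upstream sequence was read from RefSeq promoter windows (GRCm38.p6), which held 6 of the 8 genes and not Aplnr or Ntn1. The 250 bases before the annotated start were searched on both strands for CAGGTG, the E-box that Snail proteins are known to prefer, for the general E-box CANNTG, which includes it, and for TATAAA. The motif CAGGTG was in the windows of 0 of the 6 genes, against 17.2% of the 32851 windows in the table. The general CANNTG was in 1 of the 6, Apln, against 66.2% of all windows, and TATAAA in 2 of the 6, Ackr3 and Cxcr4, against 12.4%. The Ackr3 window (chr1:90203730-90203979, plus strand), with 54% G and C, is shown as that of the receptor gene with the opposed differences, with TATAAA in capitals, 8 bases before the start.
Ackr3: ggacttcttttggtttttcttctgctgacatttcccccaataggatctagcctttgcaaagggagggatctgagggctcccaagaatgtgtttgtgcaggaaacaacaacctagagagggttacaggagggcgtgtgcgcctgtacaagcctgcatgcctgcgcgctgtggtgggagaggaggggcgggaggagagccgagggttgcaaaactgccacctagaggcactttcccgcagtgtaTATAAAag
A match is a description of these letters and no evidence of a bound site.

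The other chemokine receptors gave little signal. Of 23 receptor genes listed, 18 were on the array and 4 were above the floor on at least 1 array. Ackr3, a member chosen with such differences known, was the only receptor of these counted in any comparison. Cx3cr1, Ccr9 and Ccr10, named after their values were seen, were the other 3, and their values lay between 3.10 and 3.85 on all arrays. Of 39 chemokine ligand genes listed, 36 were on the array, 9 were above the floor, and 0 were 2-fold apart in any of the 4 comparisons. Of all genes 1.34% to 3.79% were, depending on the comparison, so 0 of 9 is not read as a result about the ligands. The median difference of these 9 between KO and F/F was -0.04 in Flk1+ and -0.01 in Flk1- cells, against -0.05 and 0.04 over all genes compared.

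Apln, the apelin gene, was read by 1 probe set, 1451038_PM_at. Its values were 2.80, 2.76, 2.83 and 2.83 in KO Flk1+, F/F Flk1+, KO Flk1- and F/F Flk1- cells. All lay below the floor and within 0.07 of each other, so no direction is given.

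Aplnr, the apelin receptor, was above the floor on all 4 arrays with both probe sets. Probe set 1438651_PM_a_at, with the highest mean, was at 8.70 in KO Flk1+ and 9.25 in F/F Flk1+ cells, and at 7.83 in KO Flk1- and 8.30 in F/F Flk1- cells. Probe set 1423037_PM_at was at 7.05 in KO Flk1+ and 7.67 in F/F Flk1+ cells, and at 5.95 in KO Flk1- and 6.32 in F/F Flk1- cells. Both put the arrays in the same order, with F/F Flk1+ highest, then KO Flk1+, F/F Flk1- and KO Flk1-.

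Aplnr was higher in Flk1+ than in Flk1- cells by 0.86 in KO and 0.95 in F/F cells, just outside the 2-fold rule. By the other probe set it was higher by 1.11 in KO and 1.35 in F/F cells, past the rule. The KO value was below the F/F value by less. The KO minus F/F differences were -0.55 in Flk1+ and -0.46 in Flk1- cells, and -0.61 and -0.37 by the other probe set. The difference of differences was -0.09, and -0.24 by the other probe set. By both probe sets the KO value was thus below the F/F value in both fractions. With 1 array per group, whether the size differed between the fractions cannot be told.

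Endothelial and hemangioblast markers ran with the sort as Aplnr did. Of the 15 listed, 12 of 14 above the floor were 2-fold or more higher in KO Flk1+ than in KO Flk1- cells, and 12 of 15 in F/F Flk1+ than in F/F Flk1- cells. Of all genes 3.79% were 2-fold apart by sort in KO and 2.7% in F/F cells. Fli1, an ETS transcription factor gene of these cells, was at 5.49 in KO Flk1+ against 1.28 in KO Flk1- cells, and at 5.46 in F/F Flk1+ against 1.56 in F/F Flk1- cells. The summed linear level of the list, which includes Kdr itself, was 1291 in KO Flk1+ against 225 in KO Flk1- cells, and 1330.3 in F/F Flk1+ against 248.5 in F/F Flk1- cells. In KO Flk1- cells 7 and in F/F Flk1- cells 6 of the 15 were above the floor, and the part of this in the Aplnr values was not tested. Mesenchymal markers ran with the sort too, with 10 of 10 above the floor higher in KO Flk1+ than in KO Flk1- cells (median difference 1.09) and 10 of 11 in F/F Flk1+ than in F/F Flk1- cells (median 0.70). Their summed linear levels were 875 in KO Flk1+ and 1512 in F/F Flk1+ cells, and 364 in KO Flk1- and 819.8 in F/F Flk1- cells. The sums of the mesenchymal and of the endothelial list both put the arrays in the order that Aplnr did. The part of the mesenchymal markers in the Aplnr values was not tested.

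Of 9 genes of apelin, adrenomedullin and their receptors, all 9 were on the array and 5 were above the floor on at least 1 array. None of the 5 was 2-fold apart between KO and F/F in Flk1+ cells, nor was any of the 4 above the floor in Flk1- cells. Of all genes 1.85% and 1.34% were, so these counts of 0 are not read as a result about the list. Apela, the other ligand of the apelin receptor, went the opposite way to Aplnr by sort. It was at 6.10 in KO Flk1+ against 7.09 in KO Flk1- cells, and at 6.14 in F/F Flk1+ against 7.21 in F/F Flk1- cells. Its differences were -0.99 in KO and -1.07 in F/F cells, and its other probe set gave -0.32 and -0.89. Calcrl, a subunit of the adrenomedullin receptor, was at 4.60 in KO Flk1+ against 2.18 in KO Flk1- cells, at least 2.65-fold higher, and at 4.71 in F/F Flk1+ against 2.48 in F/F Flk1- cells, at least 2.87-fold higher. Its other probe set gave sort differences of 0.34 and 0.07 in KO and F/F cells.

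Ntn1, the netrin-1 ligand, had 2 probe sets that did not move alike. Probe set 1454974_PM_at, with the higher mean, was at 4.09 in KO Flk1+ and 2.39 in F/F Flk1+ cells, and at 5.12 in KO Flk1- and 4.64 in F/F Flk1- cells. It was thus above the floor on every array but F/F Flk1+. Probe set 1422987_PM_at was at 3.02 to 3.14, below the floor on all 4 arrays.

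By 1454974_PM_at, Ntn1 was lower in Flk1+ than in Flk1- cells, by 1.04 in KO cells, just inside the 2-fold rule, and by at least 2.73-fold in F/F cells. The KO minus F/F difference was 1.70 in Flk1+ cells. The F/F value there was below the floor, so the fold is only known to be at least 1.86. In Flk1- cells the KO minus F/F difference was 0.48, a 1.40-fold higher level.

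Markers of pluripotent cells put the arrays in the same order as this Ntn1 probe set. Their summed linear level was 399.5 in KO Flk1+ and 157 in F/F Flk1+ cells, and 1719 in KO Flk1- and 1012 in F/F Flk1- cells. In Flk1+ cells 6 of 8 markers above the floor were 2-fold or more higher in KO, where 1.85% of all genes were 2-fold apart. In each genotype 10 of 11 were 2-fold or more lower in Flk1+ than in Flk1- cells. By sort 3.79% of all genes were 2-fold apart in KO and 2.7% in F/F cells. Dppa3, a germ and stem cell gene, was at 4.66 in KO Flk1+ and 3.14 in F/F Flk1+ cells, and at 7.68 in KO Flk1- and 6.94 in F/F Flk1- cells. Endoderm markers gave this order too, with summed linear levels of 633 in KO Flk1+, 473 in F/F Flk1+, 818 in KO Flk1- and 726 in F/F Flk1- cells. Their members did not all move alike: for KO minus F/F in Flk1+ cells 5 of 8 were above 0 and 3 below. By sort 4 of 7 were lower in Flk1+ cells in the KO, and 5 of 8 in F/F. The part of either list in the Ntn1 values was not tested.

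Unc5b, a netrin receptor of vessels, was at 8.25 in KO Flk1+ and 8.18 in F/F Flk1+ cells, and at 7.93 in KO Flk1- and 8.26 in F/F Flk1- cells by probe set 1435110_PM_at. The differences were 0.07 between KO and F/F in Flk1+ cells and -0.33 in Flk1- cells. Probe set 1453269_PM_at lay near the floor, from 3.07 to 3.32. Neither probe set showed a difference that was counted.

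Unc5c, a netrin receptor best known for repelling growing axons and migrating neurons, had the widest range of the members. Probe set 1449522_PM_at was at 5.43 in KO Flk1+ and 7.57 in F/F Flk1+ cells, and at 3.73 in KO Flk1- and 6.74 in F/F Flk1- cells. Both KO arrays lay below both F/F arrays. The KO level was 4.42-fold lower in Flk1+ cells and 8.09-fold lower in Flk1- cells.

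The other Unc5c probe set, 1419592_PM_at, was at 3.07 in KO Flk1+ and 5.49 in F/F Flk1+ cells, and at 2.51 in KO Flk1- and 4.42 in F/F Flk1- cells. Its KO values were below the floor, so the KO level was at least 4.93-fold lower in Flk1+ and at least 2.35-fold lower in Flk1- cells. Both probe sets had F/F Flk1+ highest, then F/F Flk1-, with both KO arrays lower, and only 1449522_PM_at orders the KO arrays, with KO Flk1+ above KO Flk1-. The difference of differences was 0.87 by 1449522_PM_at, and by 1419592_PM_at none can be given, since its KO values give bounds only.

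Among the genes compared, the Unc5c difference held place 11 of 10666 from the most negative in Flk1+ cells and place 8 of 10538 in Flk1- cells. These places are a description, since Unc5c was chosen with such differences known. By sort, Unc5c was 1.70 higher in Flk1+ cells in the KO and 0.83 higher in F/F cells by 1449522_PM_at. By 1419592_PM_at it was 1.07 higher in F/F cells, past the 2-fold rule, and both KO values were below the floor. The 250 bases upstream of the Unc5c start (chr3:141465314-141465563, plus strand) and of the Unc5b start (chr10:60831582-60831831, minus strand) are shown as those of the receptor gene that was furthest apart between genotypes and of its relative that was not. They hold 71.2% and 66.8% G and C, and none of the 3 motifs, so no letter is in capitals.
Unc5c: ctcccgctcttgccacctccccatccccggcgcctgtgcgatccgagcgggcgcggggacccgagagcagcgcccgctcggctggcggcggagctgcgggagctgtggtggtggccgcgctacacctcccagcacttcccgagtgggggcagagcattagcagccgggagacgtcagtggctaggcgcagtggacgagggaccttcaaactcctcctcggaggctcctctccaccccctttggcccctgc
Unc5b: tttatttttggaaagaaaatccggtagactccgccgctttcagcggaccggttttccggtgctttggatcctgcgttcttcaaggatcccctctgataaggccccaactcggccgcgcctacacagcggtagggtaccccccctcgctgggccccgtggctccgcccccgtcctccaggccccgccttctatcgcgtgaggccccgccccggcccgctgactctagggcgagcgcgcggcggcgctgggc
The absence of these letters from this window says nothing of the rest of the locus.

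Cardiac and lateral plate mesoderm markers were lower in KO cells in both fractions, as Unc5c was. In Flk1+ cells 6 of 11 markers above the floor were 2-fold or more lower in KO, and in Flk1- cells 8 of 12 were. Of all genes 1.85% were 2-fold apart between KO and F/F in Flk1+ and 1.34% in Flk1- cells. Their summed linear level was 723 in KO Flk1+ and 1751 in F/F Flk1+ cells, and 524 in KO Flk1- and 1509 in F/F Flk1- cells. Tnnt2, the cardiac troponin T gene, was at 4.12 in KO Flk1+ and 6.88 in F/F Flk1+ cells, and at 3.38 in KO Flk1- and 7.39 in F/F Flk1- cells. Of the mesenchymal markers, 4 of 11 were 2-fold or more lower in KO Flk1+ and 6 of 11 in KO Flk1- cells, with the summed levels given beside Aplnr. The part of these lists in the Unc5c values was not tested.

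The list of netrins, netrin receptors and other UNC5 ligands held 22 genes, all on the array, of which 11 were above the floor. In Flk1+ cells 1 of the 11 was counted as higher in KO, Ntn1, whose fold is only known to be at least 1.86, and 1 as lower, Unc5c. In Flk1- cells Unc5c alone was counted. Of all genes 1.85% were 2-fold apart between KO and F/F in Flk1+ and 1.34% in Flk1- cells. Ntn1 and Unc5c are members chosen with such differences known, so nothing is read from these counts. Neo1, which encodes the netrin receptor neogenin and was named after its values were seen, was at 6.67 in KO Flk1+ and 6.31 in F/F Flk1+ cells, and at 6.95 in KO Flk1- and 6.997 in F/F Flk1- cells. Dcc, the attractive netrin receptor, named in the same way, lay between 3.81 and 3.94, not far above the floor. The median KO minus F/F difference of the 11 was 0.07 in Flk1+ and -0.03 in Flk1- cells, against -0.05 and 0.04 over all genes.

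**Figure D2:**
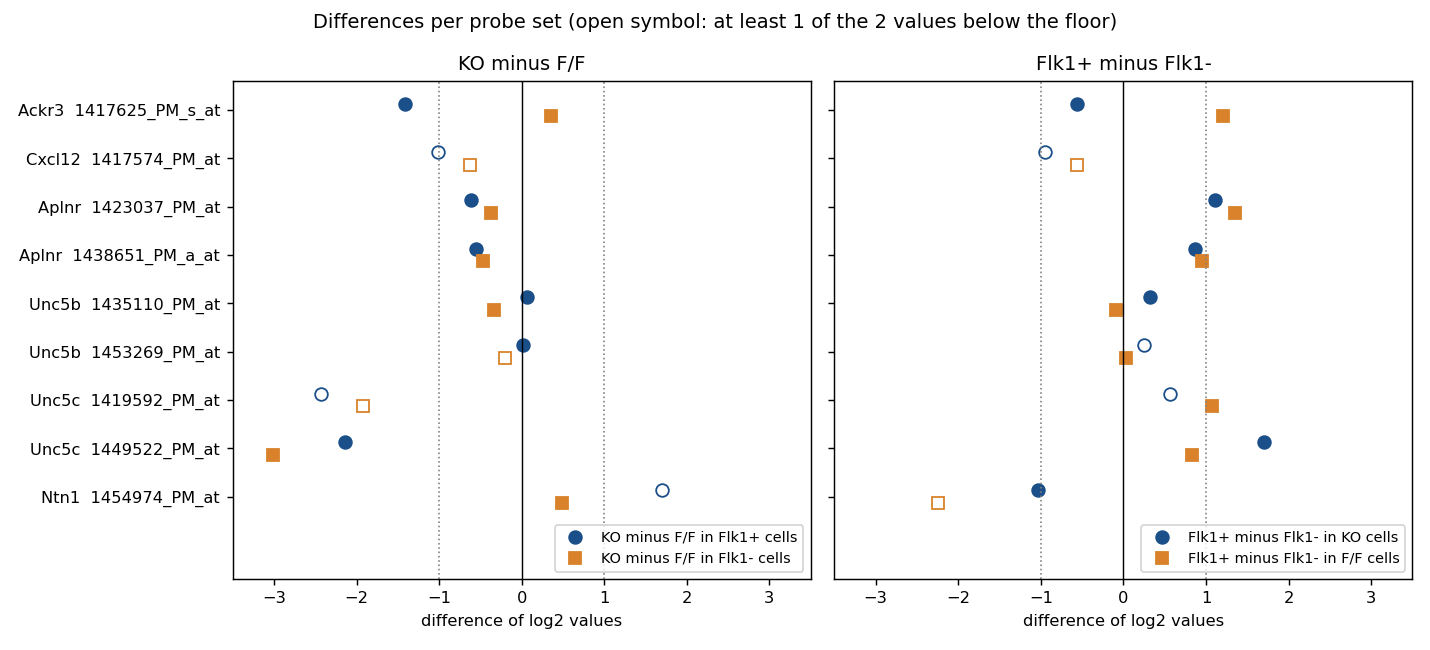
Difference of log2 values (x axis) for each member probe set above the floor on at least 1 array (y axis), KO minus F/F on the left and Flk1+ minus Flk1- on the right, with open symbols where at least 1 of the values was below the floor and dotted lines at the 2-fold rule. Both Unc5c probe sets lie past -1 in both fractions for KO minus F/F, and Ackr3 is at -1.41 in Flk1+ and 0.36 in Flk1- cells.

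Set side by side, 3 of the 5 members above the floor were counted between KO and F/F in Flk1+ cells (Ackr3, Ntn1 and Unc5c), where 1.85% of all genes were. In Flk1- cells 1 of 5 was counted (Unc5c), where 1.34% of all genes were. Between Flk1+ and Flk1- cells, 2 of 5 were counted in the KO (Unc5c and Ntn1), where 3.79% of genes were, and 2 of 5 in F/F (Ackr3 and Ntn1), where 2.7% were. The difference of differences was counted for 2 of 5 (Ackr3 and Ntn1), where 1.58% of genes were. At 1.5-fold, 4 of 5 were counted by sort in F/F (all but Unc5b), where 8.25% of genes were. At 3-fold, Unc5c alone was counted by sort in the KO, Ntn1 by sort in F/F and Ackr3 in the difference of differences, where 1.01%, 0.96% and 0.228% of genes were. The counts of Ntn1 in Flk1+ cells, by sort in F/F and in the difference of differences rest on its F/F Flk1+ value below the floor. With that value set to the floor its differences there were 0.90, -1.45 and 0.41, so only the sort count at 2-fold held. Because the members were chosen with such differences known, nothing is read from these shares. The comparisons share arrays in part, and the same F/F Flk1+ array enters 3 of these 5 readings of Ackr3 and Ntn1.

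The median difference of the 5 members was -0.55 between KO and F/F in Flk1+ cells and -0.33 in Flk1- cells, against -0.05 and 0.04 over all genes. It was 0.32 between Flk1+ and Flk1- cells in the KO and 0.83 in F/F, against -0.08 and -0.01 over all genes. As a scale for the array itself, genes with 2 probe sets, each above the floor on at least 1 array, were taken. In these 2682 genes the differences of the 2 probe sets were set against each other. Their median gap was 0.21 for KO minus F/F in Flk1+ cells and 0.18 in Flk1- cells, and 95% of gaps were below 0.67 and 0.60. The gap between the Unc5c probe sets, 1.10 in Flk1- cells, was wider than that, although 1 of them was below the floor in KO cells. Ntn1 has no place on this scale, since its probe set 1422987_PM_at was below the floor on all 4 arrays. Its gap of 1.68 in Flk1+ cells is therefore no disagreement between 2 probe sets with signal. This scale holds no spread between cultures.

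**Figure D3:**
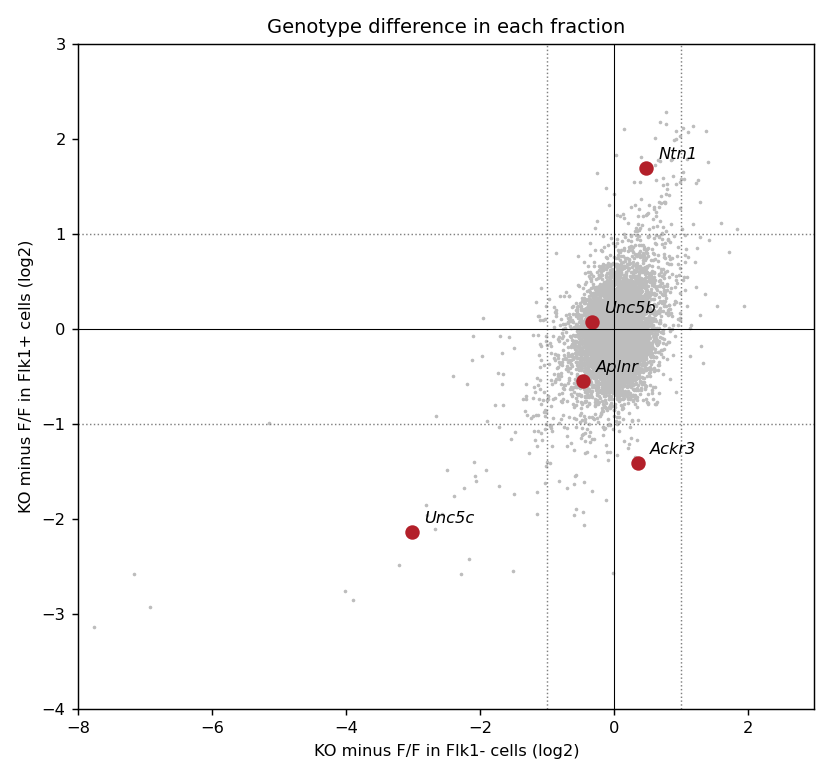
KO minus F/F difference of log2 values in Flk1+ cells (y axis) against that in Flk1- cells (x axis) for 10958 genes (grey points) and the 5 members above the floor (red), with dotted lines at the 2-fold rule. Unc5c lies low in both fractions at -2.14 and -3.02, Ackr3 lies below the cloud at -1.41 and 0.36, Aplnr lies towards the low side in both at -0.55 and -0.46, and Unc5b is at 0.07 and -0.33.

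The genes whose pattern over the 4 arrays was closest to that of a member were found by the Euclidean distance between log2 values after the mean of each gene was subtracted, for the 4 members whose values spanned at least 1. The distances, over 4 arrays, are a description. The closest to Unc5c were Dlk1, an imprinted gene, at 0.21, Hand1, a lateral plate and cardiac transcription factor gene, at 0.31, and Ahnak at 0.56. Dlk1 was at 5.84 in KO Flk1+ and 7.79 in F/F Flk1+ cells, and at 4.15 in KO Flk1- and 6.94 in F/F Flk1- cells. The probe sets of Ahnak ranged from -1.95 to 0.05 for KO minus F/F in Flk1+ cells.

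The closest to Aplnr were Col13a1 and Fn1, the fibronectin gene, both at 0.12, and Tmem176b at 0.13. Fn1 was at 8.70 in KO Flk1+ and 9.26 in F/F Flk1+ cells, and at 7.86 in KO Flk1- and 8.45 in F/F Flk1- cells. The closest to Ackr3 were Cmc4 at 0.12, Zfp948 at 0.25 and Sft2d3 at 0.30. Cmc4 was at 3.78 in KO Flk1+ and 5.14 in F/F Flk1+ cells, and at 4.20 in KO Flk1- and 3.87 in F/F Flk1- cells, while Zfp948 was above the floor only in F/F Flk1+ cells, at 4.11, and its probe sets ranged from -1.21 to -0.25 for KO minus F/F in Flk1+ cells. The closest to Ntn1 were Tpd52 at 0.29, and Mt1, a metallothionein gene, and Pim2, a kinase gene, both at 0.36, although the Ntn1 value in F/F Flk1+ cells was below the floor. For KO minus F/F in Flk1+ cells the probe sets of Tpd52 ranged from -0.08 to 1.52 and those of Mt1 from 0.15 to 1.27. Pim2 was at 5.30 in KO Flk1+ and 3.97 in F/F Flk1+ cells, and at 6.82 in KO Flk1- and 6.05 in F/F Flk1- cells.

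**Figure D4:**
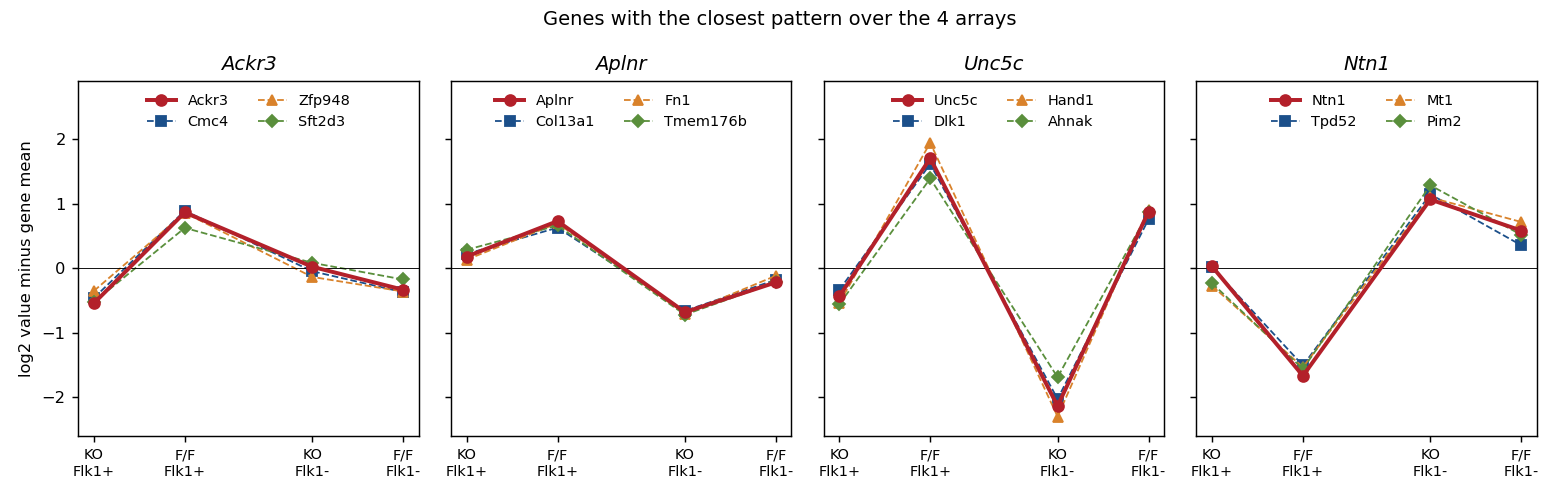
Log2 value less the mean of the gene over the 4 arrays (y axis) for Ackr3, Aplnr, Unc5c and Ntn1 (red) and the 3 genes closest to each, by array (x axis). Unc5c and Dlk1 are lowest in KO Flk1- cells, and Ackr3 and Cmc4 are highest in F/F Flk1+ cells.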

How the data were processed

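The authors deposited log2 expression values of 45141 probe sets on 4 arrays. RMA and limma are named, without role or version, per the submitters' processing notes. Amplified, biotin-labelled cDNA was hybridised, per the labels' protocols. The values were used as deposited. The 104 control probe sets were left out, and 551 probe sets with several genes and 15588 with none in the platform annotation were not named. With 1 array per group, each comparison was a difference of log2 values without a test. The members and gene lists were chosen with earlier results of these data known. Besides the members, up to 6 genes of a pathway list and 2 of a marker list with a 2-fold difference and the 3 closest patterns were named. Python 3.11.15, pandas 2.3.3 and, for cyclic loess (span 0.3, 3 rounds) and quantile normalization, limma 3.58.1 were used. The counting was tested on simulated data. Alternatives were no floor, a floor at the median, values below the floor set to it, size rules of 3-fold and 1.5-fold, quantile normalization, median centring, cyclic loess, probe sets averaged per gene and leaving out those that end in _x_at or _s_at. Use of the probe set with the lowest mean was added after seeing the data.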

Additional observations from a re-analysis of the deposited data

Results flagged for a closer look

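Ackr3 had KO minus F/F differences of opposite sign in the fractions, at -1.41 in Flk1+ and 0.36 in Flk1- cells. Its sort differences, Flk1+ minus Flk1-, were opposed in the genotypes too, at -0.57 in KO and 1.20 in F/F cells. Either way the difference of differences was -1.77. In size the 0.36 and -0.57 of Ackr3 were above the median gap between probe sets of a gene, 0.18 and 0.25 in those comparisons. They were within the range of 95% of gaps, which were below 0.60 and 0.83. Unc5b also had opposite signs, with KO minus F/F differences of 0.07 in Flk1+ and -0.33 in Flk1- cells, sort differences of 0.32 in KO and -0.08 in F/F cells, and a difference of differences of 0.40. The other Unc5b probe set, near the floor, gave 0.02 and -0.20 between KO and F/F, but sort differences of 0.25 and 0.03, not opposed. The 0.07 and -0.08 were smaller in size than the median gap between probe sets of a gene, 0.21 and 0.19 in those comparisons. Neither difference of differences was tested, since each group had 1 array. Of all genes 25.5% had one at least as far from 0 as that of Unc5b, against 0.119% for Ackr3. Since the members were chosen with such differences known, nothing is read from these shares.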

How the results depend on the processing

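The counts of members 2-fold apart between KO and F/F kept within 1.5 times under the 11 alternatives, at 2 or 3 in Flk1+ and at 1 in Flk1- cells. Unc5c was counted in both fractions under each of the 11. The sort count in KO cells, 2, was 1 under the 3-fold rule, quantile normalization, probe sets averaged per gene and the probe set with the lowest mean. That member was Aplnr under the probe set with the lowest mean and Unc5c under the others. The sort count in F/F cells, 2, was 4 under the 1.5-fold rule, and 1 under the 3-fold rule and without probe sets that end in _x_at or _s_at. With the probe set of the lowest mean it was 3, Ackr3, Aplnr and Unc5c, without Ntn1. The count for the difference of differences, 2, was 1 under the 3-fold rule, values set to the floor, the mean of the probe sets, the omission of those endings and the probe set with the lowest mean. Ntn1 left the count in Flk1+ cells with values set to the floor (0.90), the mean of its probe sets (0.86) and the lower probe set (0.02). Ackr3 has 1 probe set and it ends in _s_at, so it has no value without those endings. Over the 3 other normalizations the KO minus F/F difference of Ackr3 in Flk1+ cells was -1.35 to -1.32, and that of Unc5c was -2.08 to -2.06 in Flk1+ and -3.07 to -2.98 in Flk1- cells. Median centring moved the median sort difference of all genes in KO cells from -0.08 to 0.09. It brought Aplnr past the 2-fold rule there, at 1.01, while Ntn1 left it, at -0.89, as it did under quantile normalization, at -0.96. The size rules and the other floors cannot change a log2 difference. Under the 7 alternatives that can act on the values, 213 of 240 member values moved by less than the spread between probe sets of a gene. The other 27 moved by more, and 0 counted values changed sign. Part of the 213 could not move, so this share does not measure stability. Leaving out the endings acts on Ackr3 alone. Averaging and the lowest probe set cannot move Ackr3 and Apln, which have 1 probe set. Setting values to the floor cannot move Ackr3, Aplnr, Unc5b and Unc5c. The cause of these shifts was not tested. No paired analysis was possible because each group has 1 array. Values near or below the floor limit what can be said of Cxcl12, Apln and Ntn1.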

Other observations

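Of 19 genes of G protein and arrestin signalling, which act below the chemokine and apelin receptors, 18 were on the array and 15 were above the floor on at least 1 array. Rgs5, a regulator of G protein signalling known from pericytes, was the only gene of the list counted in any comparison. Of all genes 1.34% to 3.79% were 2-fold apart, depending on which of the 4 comparisons of arrays was made. Rgs5 was at 6.92 in KO Flk1+ and 8.32 in F/F Flk1+ cells, and at 5.68 in KO Flk1- and 7.78 in F/F Flk1- cells. Its KO minus F/F differences were -1.40 in Flk1+ and -2.09 in Flk1- cells, and over its 4 probe sets they ranged from -2.04 to -0.99 and from -2.55 to -1.72. By sort it was 1.23 higher in Flk1+ cells in the KO and 0.54 higher in F/F. The median of the list was -0.13 for KO minus F/F in Flk1+ and 0.02 in Flk1- cells, against -0.05 and 0.04 over all genes.

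Of 7 Slit and Robo genes, another repulsive guidance system, 6 were on the array, 4 were above the floor and 0 were 2-fold apart in any of the 4 comparisons. Of all genes 1.34% to 3.79% were, depending on the comparison, so 0 of 4 is not read as a result about this system. The median KO minus F/F difference of these 4 genes was 0.00 in Flk1+ and 0.13 in Flk1- cells. Neuroectoderm, endoderm and hematopoietic markers had summed linear levels of 337, 633 and 86.9 in KO Flk1+ and 184, 473 and 100.2 in F/F Flk1+ cells, and of 513, 818 and 89.4 in KO Flk1- and 329.96, 726 and 98.1 in F/F Flk1- cells. Primitive erythroid markers were at 47.0 in KO Flk1+ and 149 in F/F Flk1+ cells, and at 51.0 in KO Flk1- and 2862 in F/F Flk1- cells.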
